A study of Drosophila melanogaster with 12 samples.

Results

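The regions described here are the 4201 AGO2 peaks and the 5905 Pol II domains of mock-treated Kc167 cells, out of 10867 regions in the 3 lists of the series, and no peak or domain was left out. Each AGO2 peak was represented by its summit, the base of highest enrichment, and each summit was set against the nearest Pol II domain and the nearest transcription start site (TSS). Kc167 is a female Drosophila melanogaster line of embryonic origin, and ChIP-seq (sequencing of the DNA that an antibody pulls down with its protein) was performed with an AGO2 antibody named Mueller in the labels and with the Pol II antibody 8WG16. Mock cells gave 2 AGO2 libraries, 2 Pol II libraries and 4 inputs, and cells in which LaminB was knocked down with double-stranded RNA gave 2 AGO2 libraries and 2 inputs. No Pol II list of the knockdown cells was analysed here, so the 761 AGO2 peaks of the knockdown list were set against the mock Pol II domains. The authors pooled the libraries of each antibody and condition before the final calls, so that no value below carries an error between replicates, the read depth is unknown and no p-value is given. Intervals in brackets are 95% Wilson intervals, or Newcombe intervals for a difference of 2 shares, and cover the number of regions or genes only. Neighbouring regions are not independent, so the true uncertainty is larger.

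AGO2 is the Argonaute protein that cuts target RNAs in the RNA interference pathway, where it is loaded with small interfering RNAs, and it is also found in the nucleus. Pol II starts transcription at the TSS and at many Drosophila genes pauses a short way downstream, held by the factors NELF and DSIF, before elongation. The antibody 8WG16 recognises the repeated tail of the largest Pol II subunit and favours its less phosphorylated form, which is the form found mostly at promoters. Where AGO2 sits relative to Pol II, and on which genes the marks coincide, is the question that the comparison of both mock lists addresses.

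The sequences at the strongest AGO2 summits show what the protein was found on at each distance from Pol II. The windows of 121 bp below are centred on the 3 summits of highest −log10 p in each class whose window holds no annotated coding or untranslated base of a messenger RNA, on the chromosome arms from which sequence is shown, and are printed on the forward strand of dm6, read from the RefSeq copy of that assembly. Capitals mark matches, on either strand, to 6 short sequences: GAGAG, the core bound by GAGA factor, TATCGATA, the DNA replication-related element, TATAAA, the TATA box, CAGCTG, an E-box, ACACAC, a CA repeat, and GGTCACACT, a core promoter element of housekeeping genes. Inside a Pol II domain these were the summits at Top1 (DNA topoisomerase), tara and Atpalpha (the sodium pump subunit).
Top1 (X:15323340-15323460): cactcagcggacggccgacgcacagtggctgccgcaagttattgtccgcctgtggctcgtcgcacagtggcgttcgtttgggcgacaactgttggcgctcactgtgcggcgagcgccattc
tara (3R:16242631-16242751): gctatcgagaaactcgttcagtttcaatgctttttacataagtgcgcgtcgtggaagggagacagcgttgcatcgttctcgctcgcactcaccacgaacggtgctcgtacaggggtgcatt
Atpalpha (3R:20957036-20957156): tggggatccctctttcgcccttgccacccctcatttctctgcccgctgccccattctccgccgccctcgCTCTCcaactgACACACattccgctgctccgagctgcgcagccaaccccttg
Outside but within 1000 bp of a domain they were the summits in Tlk (a protein kinase), in the 7SK snRNA gene and in CG5953.
Tlk (X:3744610-3744730): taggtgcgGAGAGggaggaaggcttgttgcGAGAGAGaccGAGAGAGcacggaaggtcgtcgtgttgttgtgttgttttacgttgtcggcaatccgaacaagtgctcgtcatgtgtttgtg
snRNA:7SKa (3R:7474743-7474863): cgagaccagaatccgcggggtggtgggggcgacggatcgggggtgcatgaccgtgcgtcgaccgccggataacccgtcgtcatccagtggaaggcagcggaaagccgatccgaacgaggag
CG5953 (2L:16521689-16521809): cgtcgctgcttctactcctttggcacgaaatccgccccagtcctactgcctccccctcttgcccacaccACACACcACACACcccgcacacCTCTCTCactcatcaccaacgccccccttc
More than 5000 bp from any domain they were the summits in introns of CG1677, Smr (a transcriptional corepressor) and, again, CG5953.
CG1677 (X:7301116-7301236): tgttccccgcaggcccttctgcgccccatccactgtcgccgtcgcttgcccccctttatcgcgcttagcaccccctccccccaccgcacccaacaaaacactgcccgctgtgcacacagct
Smr (X:12735261-12735381): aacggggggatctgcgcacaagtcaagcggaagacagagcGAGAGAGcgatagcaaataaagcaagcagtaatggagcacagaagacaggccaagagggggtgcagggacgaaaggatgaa
CG5953 (2L:16526056-16526176): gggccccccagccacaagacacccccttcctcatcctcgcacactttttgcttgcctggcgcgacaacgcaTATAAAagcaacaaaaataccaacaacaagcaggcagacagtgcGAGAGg
GAGAG was found in 5 of these 9 windows and occurred in each distance class, and the G and C content of the 9 windows ran from 52.1% to 66.9%.

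AGO2 summits were concentrated on Pol II domains. Of the 4201 summits, 2352 lay inside a domain, which is 56.0% (54.5 to 57.5), although the domains cover 3.64% of the genome. The density was highest from 100 to 250 bp inside a domain edge, with 673 summits per Mb. It was 342 per Mb within 100 bp inside the edge and 124 per Mb in the first 100 bp outside it. From 500 to 1000 bp outside it was 45.6 per Mb, and beyond 50000 bp, where 19.1% of all bases lie, it was 2.81 per Mb. The 1849 summits outside lay a median of 2184 bp from the nearest edge (quartiles 683 and 7926 bp). Only 607 of them were within 1000 bp of a domain, 603 were at 1000 to 5000 bp and 639 were farther away, so the outside summits were not mainly the fringe of the domains. The share inside depended on how a domain was defined, being 47.6% with domains of at least 500 bp and 63.0% when any overlap of the peak was counted, and with domains of at least 500 bp the median distance outside was 5089 bp.

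**Figure D1:**
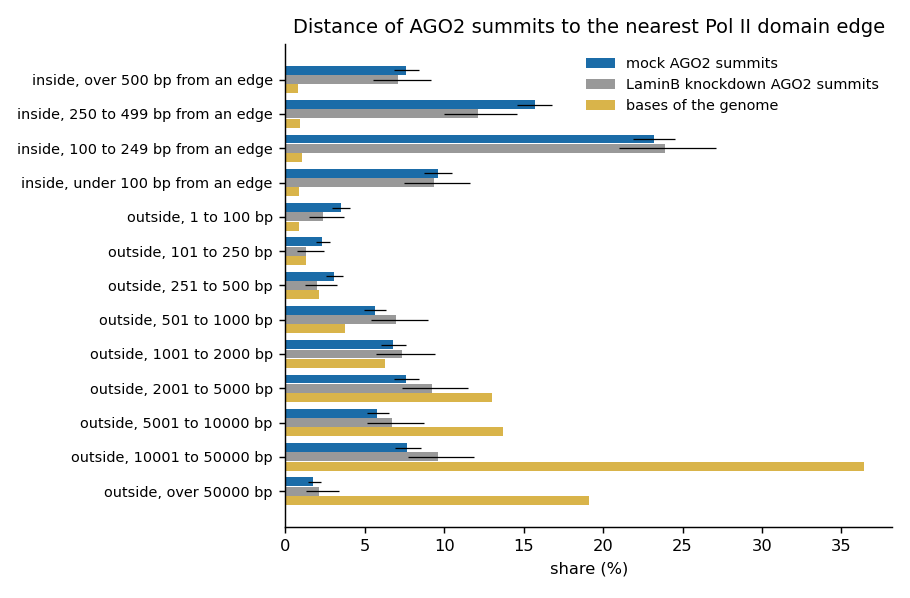
Share of summits (horizontal axis, %) at each distance from the nearest mock Pol II domain edge (rows), for the 4201 mock AGO2 summits, the 761 LaminB knockdown AGO2 summits and all bases of the genome. Lines on the bars are 95% Wilson intervals. Mock summits are over-represented against bases in all 4 inside rows and in the rows up to 1000 bp outside, and 9.43% of them lie over 10000 bp away.

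The summits inside and outside differed little in strength. The median −log10 p, the caller's measure of how unlikely the enrichment is over input, was 22.7 inside (quartiles 18.4 and 30.9) and 20.2 within 1000 bp outside, 19.8 at 1000 to 5000 bp and 20.8 beyond 5000 bp. The median fold enrichment over input was 3.20 inside and 3.28 beyond 5000 bp, and the peaks were 537 bp wide inside and 439 bp wide beyond 5000 bp. The share of summits inside a domain was 41.6% (37.0 to 46.3) in the weakest decile of the list by −log10 p, 65.7% (61.1 to 70.1) in decile 7 and 60.2% (55.5 to 64.8) in the strongest. It went from 43.5% (38.8 to 48.2) in the narrowest decile of peaks to 65.7% (61.1 to 70.1) in the widest, whereas along the deciles of fold enrichment it stayed between 48.3% and 61.0% without an order. The 201 bp around summits had a median G and C content of 54.7%, against 46.3% at Pol II domain centres, 42.8% at TSSs inside a domain and 42.3% in 201 bp tiles of the genome. In the distance classes it was 54.2% inside, 56.2% within 1000 bp outside and 54.7% beyond 5000 bp. By deciles of this content, the share of summits inside a domain was 61.0% (56.3 to 65.6) in the lowest and 44.8% (40.1 to 49.5) in the highest. Whether base composition acts on the calls was not tested.

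Seen from Pol II, most domains had no AGO2 summit. Of the 5905 domains, 2074 held at least 1, which is 35.1% (33.9 to 36.3). A single summit was found in 1825 domains, 2 in 225, 3 in 20 and 4 or more in 4. The domains without a summit were 532 bp wide at the median (quartiles 349.5 and 926 bp) and those with a single summit 800 bp (548 and 1253 bp). The share with a summit went from 9.64% (7.52 to 12.3) in the narrowest decile of domains to 40.3% (36.4 to 44.3) in decile 5 and 64.1% (60.1 to 67.8) in the widest. A wider domain offers more bases, and per kb of domain the density was 0.418 summits in the narrowest decile, 0.688 in decile 5 and 0.401 in the widest, so it was highest at domains of 535 to 642 bp. Domains that held no TSS were fewer and narrower (847 domains, median 340 bp), and 22.2% (19.5 to 25.1) of them had a summit, at 0.515 summits per kb. Of the 3455 domains with TSSs of 1 strand, 34.4% (32.8 to 36.0) had one, at 0.551 summits per kb, and of the 1603 domains with TSSs of both strands 43.5% (41.1 to 45.9) had one, at 0.378 per kb.

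The domains with the most AGO2 summits lay at a few long or crowded loci. A domain of 3685 bp at 3R:16234159-16237843, inside the gene tara but over none of its TSSs, held 5 summits with −log10 p of 15.7 to 89.9, and a second domain of tara held 3. Domains with 4 summits each lay at the TSSs of HmgD and HmgZ (high mobility group proteins of chromatin), of Dp1 and imd (imd is the adaptor of the immune deficiency pathway) and of nej, which encodes the CBP acetyltransferase. Their summits had −log10 p of 19.7 to 59.5, 17.1 to 24.4 and 16.4 to 57.0. The widest domain of the whole list, 7856 bp over chic (profilin) and eIF4A, held 3 summits, as did the domain of 7672 bp over Rab27, inc, sta and their neighbours.

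Within domains whose TSSs were all on 1 strand, AGO2 summits lay more often on the promoter side of the middle and more often downstream than upstream of the nearest TSS of the domain. Of the 1294 summits in such domains, 513 were downstream of the domain centre in gene orientation, which is 39.6% (37.0 to 42.3), and the median summit was at -52.5 bp from the centre, where a minus sign means upstream. Measured from the upstream to the downstream edge, the median summit was 41.6% along the domain, and the median TSS, taken over all such domains with or without a summit, was 26.1% along. Measured directly, 803 of the 1294 summits were downstream of the nearest TSS in their own domain (62.1%, 59.4 to 64.7), with a median of 76.0 bp downstream (quartiles -55.0 and 228 bp), so many lay upstream of it. The first 20% of the domain length held 39.1% of the TSSs but 17.2% of the summits, and the last 10% held 1.32% (1.01 to 1.72) of the TSSs and 6.34% (5.13 to 7.80) of the summits. In domains of 500 bp to under 1000 bp 35.9% (32.2 to 39.7) of 627 summits were downstream of the centre, whereas in domains under 500 bp it was 45.8%, with an interval that included 50% (39.8 to 52.0). Over all domains with TSSs of 1 strand, the TSS lay a median of 134 bp from the upstream edge and 394 bp from the downstream edge. In those under 500 bp the medians were 93.0 and 263 bp.

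**Figure D2:**
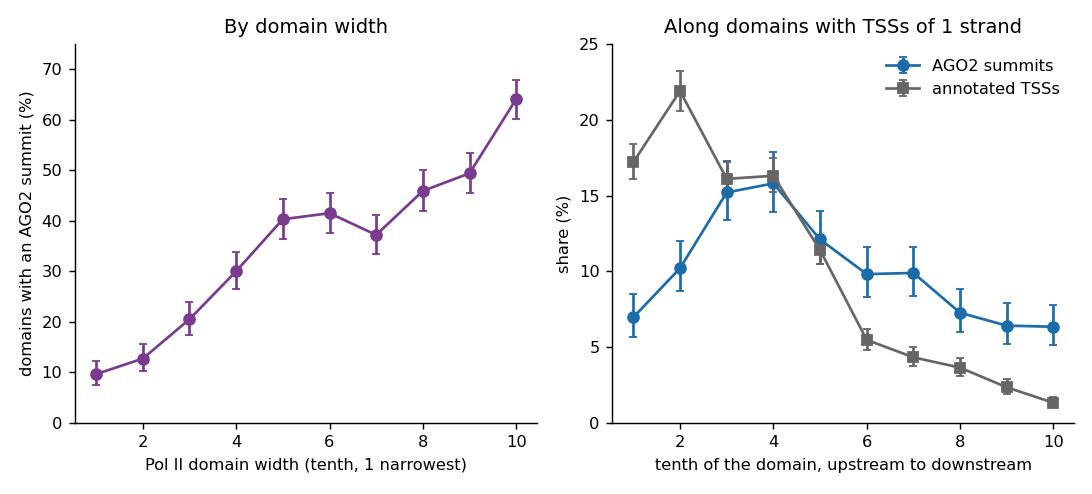
Left, share of Pol II domains with at least 1 AGO2 summit (vertical axis, %) by decile of domain width. Right, share of 1294 AGO2 summits and of 4094 annotated TSSs (vertical axis, %) in each 10% of the length of the domains with TSSs of 1 strand, from the upstream to the downstream edge. Lines are 95% Wilson intervals. The share with a summit goes from 9.64% in the narrowest to 64.1% in the widest decile, and the summits are spread farther downstream than the TSSs.

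Summed over all TSSs, the density of AGO2 summits had a maximum just upstream of the TSS and another downstream. Pol II domain centres were densest between these positions. Whether both positions occur at the same promoter was not tested. A summit within 1000 bp of a TSS was found for 2927 of the 4201 peaks, which is 69.7% (68.3 to 71), while such bases make up 23.1% of the genome. In bins of 50 bp the density was 191 summits per Mb from 50 bp upstream to the TSS, 154 per Mb in the first 50 bp downstream and 249.7 per Mb from 200 to 250 bp downstream. Pol II domain centres had a single peak, with 651 per Mb in the first 100 bp and 667 per Mb from 100 to 200 bp downstream. The median of the proximal AGO2 summits was 138 bp downstream, and 67.2% (65.5 to 68.9) of them were downstream. Proximal Pol II domain centres had a median of 83.0 bp downstream, and 72.5% (71.3 to 73.7) were downstream.

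The AGO2 position moved with the strength of the peak, and its direction turned in the strongest peaks. The weaker 50% of the list had a median of 199 bp downstream of the TSS and 74.6% (72.3 to 76.8) of its proximal summits downstream, whereas the strongest 10% had a median of -62.0 bp and 42.5% (37.1 to 48.2) downstream. In the stronger 50% the median was 77.0 bp. It also moved with the neighbourhood of the TSS, being 23.5 bp, with 53.2% downstream, when only TSSs with none of the opposite strand within 1000 bp were used. A median over all proximal summits therefore averages both positions.

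Summits inside and outside a Pol II domain had different profiles around the TSS. Of the 2176 proximal summits inside a domain, 69.9% (67.9 to 71.7) were downstream, with a median of 129 bp. Of the 751 outside, 59.5% (56.0 to 63.0) were downstream, with a median of 250 bp, a difference of 10.3 percentage points (6.36 to 14.4). The outside summits were rare at the TSS itself, with 5.25 per Mb in the first 50 bp downstream, and reached 46.4 per Mb from 500 to 550 bp downstream. Near a domain with TSSs of 1 strand they were found on both of its sides: 66 of 124 summits within 250 bp of the edge (53.2%, 44.5 to 61.8) were on the downstream side, and 228 of 373 at 1000 to 5000 bp (61.1%, 56.1 to 65.9).

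**Figure D3:**
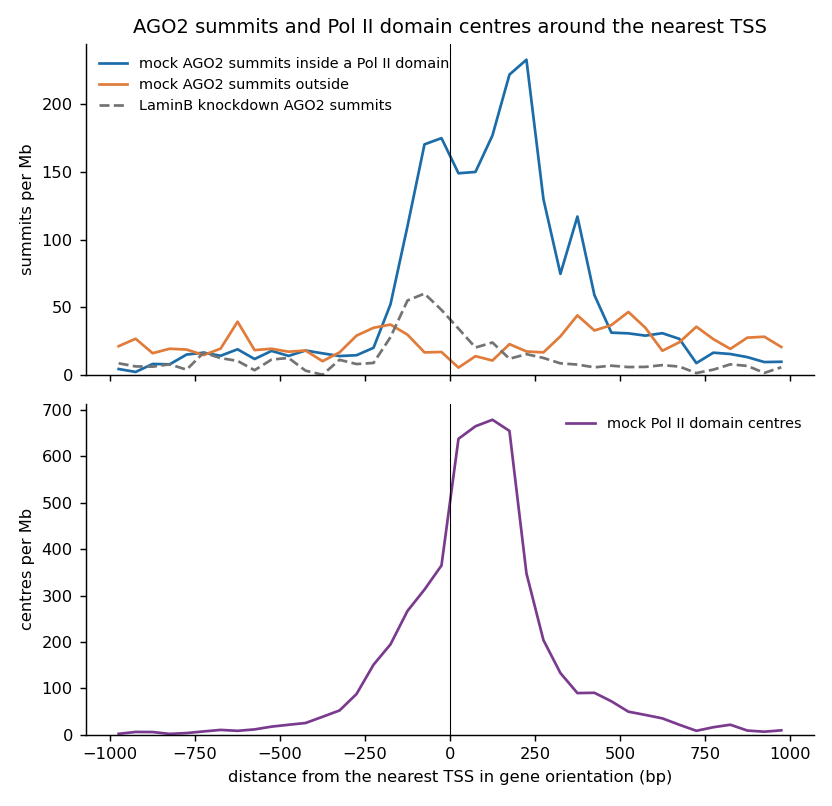
Density (vertical axes, per Mb of sequence at that distance, bins of 50 bp) of AGO2 summits (top) and of mock Pol II domain centres (bottom) by distance from the nearest TSS in gene orientation (horizontal axis, bp, negative upstream). Mock summits inside a domain show a maximum of 175 per Mb just upstream of the TSS and a higher one of 233 per Mb from 200 to 250 bp downstream, outside summits are rare at the TSS, and knockdown summits have a single maximum upstream.

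The upstream and downstream summits lay on different sequence. From 200 bp upstream to the TSS, 618 summits had a median −log10 p of 26.4, a median peak width of 484 bp and 3.72% (2.49 to 5.52) of their summit bases in coding sequence. From 200 to 300 bp downstream, 389 summits had a median −log10 p of 21.0 and a width of 584 bp, and 57.1% (52.1 to 61.9) were on coding sequence. From 300 to 500 bp the coding share was 69.0% (64.2 to 73.3), at a median −log10 p of 19.5. GAGAG was present within 100 bp of 60.2% (56.3 to 64.0) of the summits in the 200 bp upstream and of 26.8% of the 835 summits from 100 to 300 bp downstream, a difference of 33.4 percentage points (28.4 to 38.1). In tiles of the genome of the same length 21.6% held GAGAG, and among all TSSs 24.3%. ACACAC was also more frequent at summits, in 26.3% (24.9 to 27.6) of all mock windows against 12.3% of the tiles. GAGAG was as frequent far from Pol II, in 43.5% (39.7 to 47.4) of the windows beyond 5000 bp against 39.8% (37.9 to 41.8) inside domains, and the interval of that difference included 0 (-8.01 to 0.619 percentage points). A match is a stretch of letters and was not tested as a binding site.

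**Figure D4:**
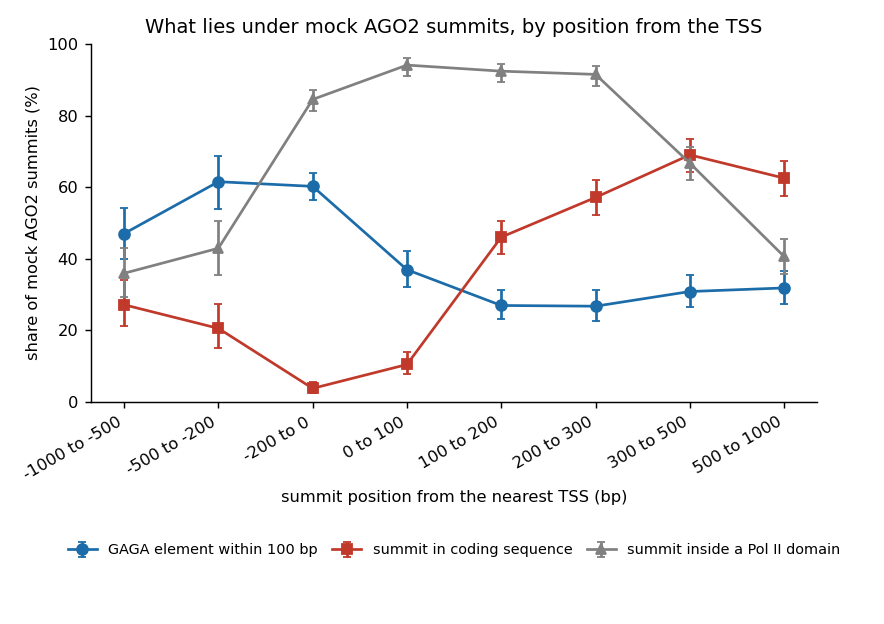
Share of mock AGO2 summits (vertical axis, %) with a GAGA element (the 5 letters of its core, either strand) within 100 bp, with the summit base in coding sequence, and inside a Pol II domain, by position of the summit from the nearest TSS (horizontal axis, bp). Lines are 95% Wilson intervals. The GAGA share is 60.2% in the 200 bp upstream of the TSS and 26.7% from 200 to 300 bp downstream, and the coding share goes from 3.72% to 57.1%.

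Coding sequence was common under AGO2 summits and most common beside Pol II domains. Of all summits, 35.7% (34.2 to 37.1) were on a coding base, against 16.6% of the genome. The share was 32.5% (30.6 to 34.4) inside domains, whose own bases are 26.2% coding, and 52.2% (48.2 to 56.2) up to 1000 bp outside, a difference of 19.7 percentage points (15.3 to 24.1). Beyond 5000 bp, 25.4% (22.1 to 28.9) were coding, 41.5% (37.7 to 45.3) intronic and 24.7% (21.5 to 28.2) intergenic. The 5′ untranslated regions held 31.0% (29.1 to 32.9) of the inside summits, close to their share of 30.3% of domain bases, and 3′ untranslated regions held 0.723% (0.452 to 1.15). Coding bases are 53.3% G and C against 39.6% in introns and 40.0% between genes, and the part of base composition in the coding share was not tested.

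In the knockdown AGO2 list, set against the same mock domains, fewer of the summits near a TSS were downstream of it. Of its 761 summits, 52.4% were inside a domain, 3.56 percentage points below the mock list (-0.279 to 7.41). Of its 462 TSS-proximal summits, 41.6% (37.2 to 46.1) were downstream, with a median of -35.0 bp, against 67.2% in mock, a difference of 25.6 points (20.8 to 30.4). The knockdown list is shorter and its weakest peak has a −log10 p of 19.8 against 15.4 in mock. When the 761 strongest mock peaks were taken instead, 62.9% were inside a domain, 10.5 points above the knockdown list (5.55 to 15.4), and 48.5% of the proximal ones were downstream, 6.91 points above it (0.767 to 13.0). Of the mock peaks from 200 bp upstream to the TSS, 26.2% (22.9 to 29.8) overlapped a knockdown peak, and of those from 200 to 300 bp downstream 6.17% (4.18 to 9.02). GAGAG lay within 100 bp of 68.2% (64.8 to 71.4) of the knockdown summits. Depth, the number of peaks kept and LaminB cannot be told apart between the lists.

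Genes were then classed by whether an AGO2 peak, a Pol II domain, both or neither overlapped at least 1 of their annotated TSSs by 1 bp or more. Of 18277 genes, 1622 had AGO2 (8.87%) and 6778 had Pol II (37.1%). Both marks were found on 1487 genes (8.14%), AGO2 without Pol II on 135 (0.739%), Pol II without AGO2 on 5291 and neither on 11364. Among 13968 protein-coding genes the shares were 10.4% with AGO2, 45.8% with Pol II, 9.97% with both and 0.465% with AGO2 alone. Thus 91.7% (90.2 to 92.9) of the genes with AGO2 at a TSS also had Pol II there, and 21.9% (21.0 to 22.9) of the genes with Pol II also had AGO2, against 1.17% (0.993 to 1.39) of the genes without Pol II. In 1461 of the 1487 genes with both, a single TSS carried both marks. The classes were also counted anywhere in the gene body, where 39% (37.9 to 40.1) of the genes with Pol II had AGO2.

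Genes with both marks were longer and had more start sites than genes with Pol II alone. Protein-coding genes with both were 5770 bp long at the median (quartiles 2522 and 16132 bp), those with Pol II alone 2808 bp (1597 and 5782 bp) and those with neither 1598 bp (906 and 3117 bp). The 65 protein-coding genes with AGO2 alone were 7846 bp long (3953 and 20053 bp). Of the Pol II genes in the shortest 20% by length, up to 1519 bp, 10.2% (8.70 to 12) had AGO2, and in the longest 20%, from 9276 bp, 39.5% (36.9 to 42.2). With 1 annotated TSS the share was 15.1% (14.1 to 16.3), and with 4 or more it was 49.3% (44.1 to 54.5), where a gene with more TSSs also has more chances to be counted. Genes with more than 1 TSS made up 18.6% (16.6 to 20.8) of the shortest 20% and 63.8% (61.2 to 66.4) of the longest. Length and the number of TSSs were therefore not separated. Of Pol II genes on the X chromosome 29% (26.5 to 31.6) had AGO2, against 20.4% on the arms of chromosomes 2 and 3, a difference of 8.57 percentage points (5.87 to 11.4). On chromosome 4, 3 of 36 domains held an AGO2 summit (8.33%, 2.87 to 21.8).

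The promoters that carried AGO2 differed in sequence from those that carried Pol II alone. The 1714 TSSs under both a domain and an AGO2 peak had GAGAG within 100 bp in 38.6% (36.3 to 41.0), and the 6753 TSSs under a domain only in 24% (23 to 25), a difference of 14.6 percentage points (12.1 to 17.2). The elements of housekeeping promoters went the other way: TATCGATA was found at 6.59% and 12.8% (a difference of -6.17 points, -7.53 to -4.68), and GGTCACACT at 6.88% and 9.46% (-2.58 points, -3.90 to -1.12). TATAAA was found at 10.3% (8.97 to 11.9) of the TSSs with both and 23.6% (22.6 to 24.6) of those with Pol II alone. The median G and C content of these windows was 49.8% with AGO2 and 40.8% without, and its part in the differences was not tested.

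Among the genes with both marks, the strongest peaks lay at CG32795 and its neighbour w, which encodes a pigment transporter of the eye, at Top1 and at regulatory genes. The strongest peak of the list (X:2789853-2793308, −log10 p of 195, fold enrichment 10.4) reached from the TSS of CG32795 into w, and its summit was inside a domain of 3555 bp. That summit lay on coding sequence, at -339 bp from the TSS of CG32795. AGO2 peaks covered 100% of the exon bases of w and 25.5% of its intron bases, so the called peaks there were not confined to promoters. What gave this coverage was not tested. The promoter of w had a second peak, with a −log10 p of 110.1. At RhoGAP18B, which encodes a GTPase-activating protein, the peak (X:19152993-19154952) had a −log10 p of 119 and its summit was 103 bp downstream of the TSS. At tara the peak at 3R:16242220-16243271 had a −log10 p of 105 and its summit was at -125 bp from the TSS. At Psc, a subunit of the Polycomb repressive complex PRC1, the peak at 2R:12980200-12981275 had a −log10 p of 105 and a summit at -165 bp, and at brk, a repressor of Dpp targets, the values were 95.8 and -146 bp. The domains at Psc and brk were 1046 and 907 bp wide. At Pits the summit was 157 bp downstream, with a −log10 p of 94.1.

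The genes with AGO2 alone included developmental transcription factors and small RNA genes. Of the 135, 65 were protein-coding, 57 were non-coding RNA genes and 11 were tRNA genes, so that more tRNA genes had AGO2 alone than had both marks (2 of 290). The strongest was the 7SK snRNA gene snRNA:7SKa, whose RNA holds the elongation kinase P-TEFb inactive, with a −log10 p of 98.0 and the nearest Pol II domain 1145 bp from its TSS. It was followed by opa (a zinc finger factor of segmentation, 94.8), bi (a T-box factor of wing patterning, 83.9), unc-4 (a homeodomain factor, 82.1), ap (a LIM homeodomain factor, 77.4) and grn (a GATA factor, 64.6), and by 2 long non-coding RNA genes, lncRNA:CR45352 (64.7) and lncRNA:CR45039 (61.1). At the 5 transcription factor genes the summits lay at -219, -151, -233, -140 and -154 bp from the TSS, in the order named, and they were 31082, 60281, 28002, 24442 and 36328 bp from the nearest domain. Both long non-coding RNA genes were beside a domain, with their TSSs 143 and 693 bp from it. The AGO2 summits of both genes lay inside that domain, so only their TSSs were without Pol II. Of the 65 protein-coding genes, 45 had the summit upstream (69.2%, 57.2 to 79.1). Over all 135 genes with AGO2 alone it was 57.0%, with an interval that included 50% (48.6 to 65.1), and over all 1622 genes with AGO2 it was 46.1% (43.7 to 48.5). Of all 135, 43 had a TSS within 1000 bp of a domain and 60 lay farther than 5000 bp, and 15 had a domain elsewhere in the gene body.

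Among the genes with Pol II alone, the widest domains were at Rab27 (7672 bp), CG14965 (7627 bp, also over Hsp83, the Hsp90 chaperone), CG4456 (5984 bp, in the cluster of small heat shock genes), RpL12 (5630 bp), the pseudogene CR43727 (5208 bp) and Tailor (5184 bp, a uridylyltransferase). At DnaJ-1, a co-chaperone, the domain was 4814 bp wide and at RhoGAP16F 4787 bp. The domains at Rab27 and RhoGAP16F each held 3 AGO2 summits elsewhere than over the TSS, that at DnaJ-1 held 2 and those at RpL12 and CR43727 none.

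Gene lists for the cell type and for transcription were then read against these shares. They were chosen with earlier results of these data in view, and 254 of 257 listed genes were matched in the annotation. For comparison, of all protein-coding genes 45.8% had Pol II and 10.4% had AGO2 at a TSS, and 21.8% (20.8 to 22.8) of those with Pol II had AGO2. These lists are short, so a few genes decide how a list stands against those shares. Of 12 hemocyte markers, 11 had Pol II at a TSS, and 4 also had AGO2: srp (the GATA factor of blood cells, −log10 p of 63.2), ush (its partner, 62.6), Pxn (peroxidasin, 35.3) and Tig (an extracellular matrix protein, 29.9). NimC1, a phagocytosis receptor, had neither. Of the 8 neuron, 8 muscle, 7 germline and 8 testis genes, Pol II was found at elav, Mlc2, wupA, aub and mia only, and AGO2 at none. The other genes of these 4 lists had neither mark, as had 7509 of all 13968 protein-coding genes.

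Most genes of the transcription machinery carried Pol II without AGO2, with AGO2 at 8.33% of the Pol II subunits, 7.14% of the pausing and elongation factors and 5.00% of the initiation factors. A single gene of each list makes up these shares, and of all protein-coding genes 10.4% had AGO2. Of the protein-coding genes with Pol II, 21.8% had AGO2, so that most genes with Pol II carried it without AGO2. Among the 12 Pol II subunits 10 had Pol II and 1 had both, Polr2F, with a −log10 p of 25.4 and a summit 126 bp downstream. Polr2E and Polr2L counted as having neither, but their TSSs were 26 and 37 bp from a domain. All 14 pausing and elongation factors had Pol II and 1 had both, Nelf-A (16.1), a subunit of the pausing complex NELF. Of 20 general initiation factors 18 had Pol II and 1 had both, Taf4 (24.4), a subunit of TFIID. All 8 nuclear lamina genes had Pol II alone. Of the 12 insulator protein genes, all had Pol II and 2 had both, Trl, which encodes GAGA factor (19.0), and BEAF-32 (18.5). In the RNA interference and microRNA pathway, 13 of 15 genes had Pol II and 4 had both, where 21.8% of all protein-coding genes with Pol II had AGO2: AGO1, the microRNA Argonaute (47.0), Fmr1 (30.1), Ranbp21 (the exportin of pre-microRNAs, 23.3) and vig (20.8). AGO2 itself had Pol II alone.

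The 81 cytoplasmic ribosomal protein genes all had Pol II, and 16 of them also had AGO2 (19.8%), close to the 21.8% (20.8 to 22.8) of all protein-coding genes with Pol II. The strongest were RpS5a (43.7), RpS26 (38.9), RpL34b (28.7) and RpL22 (26.2), and the summit was upstream of the TSS in 3 of the 16, with a median of 158 bp downstream. GAGAG was within 100 bp of 3 of these summits. Of the 18 heat shock genes, 12 had Pol II and 1 had both, Hsp23 (19.8). The Hsp70 copies are near-identical and the authors removed multimapping reads, so their classes are uncertain. Among the 8 dosage compensation and sex genes, 6 had Pol II and mle, the RNA helicase of the complex, also had AGO2 (19.9). The X-linked RNAs roX1 and roX2 had neither.

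The ecdysone response genes, by contrast, carried both marks in 11 of 13 cases (84.6%). They include the hormone receptor subunits EcR (17.6) and usp (17.0) and the ecdysone-induced transcription factors Eip75B (52.7), br (28.2), Eip78C (25.1) and Eip74EF (21.1). The competence factor of the prepupa, ftz-f1 (43.2), also carried both. The other members with both were tai (24.7), Hr4 (22.7), Hr3 (17.5) and E23 (16.8), and Smr and MsrA had Pol II alone. At Eip75B the peak given, at 3L:17969995-17971569, and the domain given, at 3L:17961382-17962023, did not overlap. Whether another peak or domain put both marks at a single TSS of this gene is not shown here. The summit was upstream of the TSS at 8 of the 11 genes, with a median of -90.0 bp, and GAGAG was within 100 bp at 10 of the 11. Over all 1622 genes with AGO2 at a TSS, the summit was upstream in 46.1% and GAGAG was within 100 bp in 43.9%. These values are a description of a list, and no test was made of it.

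The Hox genes, which specify segments and are silenced by Polycomb proteins where they are not used, were the list in which AGO2 was found without Pol II. AGO2 alone was at lab (17.3), Scr (18.4) and abd-A (34.5), both marks were at Dfd (43.1), Pol II alone was at Abd-B, and neither was at pb, Antp and Ubx. The domain at Dfd was 215 bp wide. The distance from the nearest domain to the closest TSS of the gene was 3297 bp at lab, 56572 bp at Scr and 104015 bp at abd-A. All 4 summits were upstream, at -74 bp in lab, -90 bp in Dfd, -86 bp in Scr and -105 bp in abd-A. Their windows of 121 bp are printed below on the forward strand of dm6 because the position recurred at these 4 promoters, a set chosen after its values were seen, and capitals mark the same 6 short sequences as above. Dfd is transcribed along the printed strand and lab, Scr and abd-A against it.
lab (3R:6678604-6678724): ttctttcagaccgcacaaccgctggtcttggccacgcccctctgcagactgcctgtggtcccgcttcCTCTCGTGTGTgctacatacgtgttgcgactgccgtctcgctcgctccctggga
Dfd (3R:6791686-6791806): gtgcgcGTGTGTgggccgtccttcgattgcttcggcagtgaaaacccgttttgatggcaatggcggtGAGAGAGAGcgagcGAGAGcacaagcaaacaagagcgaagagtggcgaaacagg
Scr (3R:6850007-6850127): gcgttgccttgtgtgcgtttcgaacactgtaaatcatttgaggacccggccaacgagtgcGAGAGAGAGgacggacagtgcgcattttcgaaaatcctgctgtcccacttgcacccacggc
abd-A (3R:16830094-16830214): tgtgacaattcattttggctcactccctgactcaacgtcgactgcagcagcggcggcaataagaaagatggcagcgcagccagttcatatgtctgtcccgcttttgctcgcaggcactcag
GAGAG was within the printed window in lab, Dfd and Scr, and within 100 bp of the summit in all 4. Over all 1622 genes with AGO2 at a TSS, GAGAG was within 100 bp in 43.9% and the summit was upstream in 46.1%. For the 65 protein-coding genes with AGO2 alone these shares were 56.9% and 69.2%. Of all protein-coding genes, 0.465% had AGO2 alone.

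**Figure D5:**
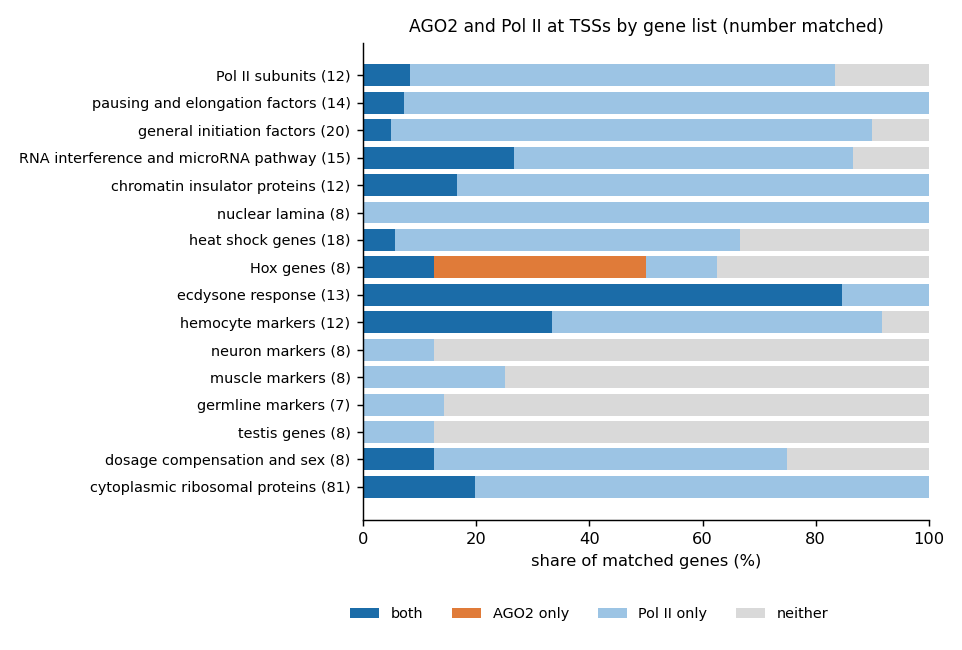
Share of the matched genes of each list (horizontal axis, %) with both an AGO2 peak and a Pol II domain at a TSS, with AGO2 only, with Pol II only and with neither. The number of matched genes stands beside each list name. Ecdysone response genes are mostly in the class with both (11 of 13), Hox genes hold the genes with AGO2 only (3 of 8), and the machinery and ribosomal lists are mostly Pol II only.

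The strongest AGO2 peaks far from Pol II were mostly intronic or intergenic. The 6 strongest beyond 5000 bp had −log10 p of 94.8 to 104 and fold enrichments of 5.48 to 7.41. The first, at 2R:13034913-13035785, was intergenic, 23688 bp from a domain and 12121 bp from the TSS of CG13323. The second lay on coding sequence of otp, a homeodomain gene, 48029 bp from a domain. The others were in introns of CG1677, Smr and CG5953 and at the promoter of opa. Of these 6, all but the one at opa overlapped a peak of the knockdown list.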

How the data were processed

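ChIP-seq libraries from Kc167 cells were processed by the authors, who trimmed reads with cutadapt 1.10, aligned them to dm6 with bowtie2 2.2.8, removed multimapping reads with samtools 1.3.1 and duplicates with Picard 2.5.0, and called peaks with MACS2 2.1.1.20160309 on pooled libraries against pooled input. AGO2 calls were kept by the irreproducible discovery rate, and Pol II broad calls when found in at least 1 replicate, then merged with bedtools 2.25.0. Pooling removes the spread between replicates, and the deposited lists hold no read counts. Each AGO2 peak carries, in the deposited list, a score (a rounded display value that was not used), a fold enrichment ratio over input, and the −log10 of a p-value and of a q-value as the authors' caller gave them. Pol II domains carry positions only.

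From these lists, distances, overlaps of at least 1 bp, sequence content within 100 bp (201 bp windows) and gene classes were computed with Python 3.11.15, numpy 2.4.6, pandas 2.3.3 and matplotlib 3.10.9. The annotation was that of FlyBase genes in Ensembl on 7 chromosomes, with 18277 genes and 23697 stranded TSS positions, and sequences were RefSeq's. The distance and overlap code was tested on simulated intervals. The regions, gene lists and comparisons were chosen with earlier results of these data known. Named genes were the 8 of highest −log10 p in the classes with AGO2, the 8 with the widest domain among genes with Pol II alone, and up to 4 per list by −log10 p. Members of lists beyond these, and the Hox windows, were chosen after their values were seen. The listed genes Nelf-B, mtor and nos were not matched by name. Alternatives changed the strength of the AGO2 list, the overlap rule, the domain width, the TSS set and the chromosomes used.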

Additional observations from a re-analysis of the deposited data

How the results depend on the processing

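No paired analysis was possible because the authors pooled the replicates of each antibody before the final calls, so that leaving out a replicate was not possible either. Of 51 alternative settings for 8 results, 19 moved the value within its 95% interval and 32 moved it beyond. A direction was defined only for the position from the TSS and for the shares downstream of the TSS and of the domain centre. None of the 51 settings changed it. The share of summits inside a domain, 56.0%, was 62.1% in the stronger 50% of the AGO2 list, 63.0% with any overlap of the peak, 61.8% with domains widened by 250 bp and 47.6% with domains of at least 500 bp. Under these settings, in the same order, the median distance outside, 2184 bp, was 2678, 3277, 2981 and 5089 bp, and the share of domains with a summit, 35.1%, was 20.5%, 39.2%, 38.6% and 45.6%. The median position from the TSS, 138 bp, was 77.0 bp in the stronger 50%, 194 bp with 1 TSS per gene, 23.5 bp with TSSs that had none of the opposite strand within 1000 bp, and 112 bp within 500 bp of a TSS. The downstream share, 67.2%, was 60.4%, 74.1% and 53.2% in the first 3 of these settings. The share of summits downstream of the domain centre, 39.6%, was 36.2% in the stronger 50% and 42.5% with 1 TSS per gene. The share of AGO2 genes with Pol II, 91.7%, was 80.7% with domains of at least 500 bp, 95.5% for protein-coding genes, 88.6% with 1 TSS per gene and 90.2% over gene bodies. The share of Pol II genes with AGO2, 21.9%, was 14.6% in the stronger 50%, 20.4% with widened domains, 24.1% with domains of at least 500 bp, 17.3% with 1 TSS per gene, 23.9% with summits within 250 bp of a TSS, 39% over gene bodies and 20.4% on chromosome arms 2L, 2R, 3L and 3R.

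A further setting, the strongest 10% of the list, was chosen after seeing the data. It turned the position from the TSS to -62.0 bp and the downstream share to 42.5%, and gave 60.2% inside a domain, 33.1% downstream of the centre and 89.3% of AGO2 genes with Pol II. Taking as many of the strongest mock peaks as the knockdown list holds, also chosen afterwards, moved the difference from the knockdown list in the share inside a domain from 3.56 to 10.5 percentage points. The causes were not tested. Without read counts the depth behind a missing peak is unknown, so a gene without AGO2 or Pol II is one without a called region.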

Other observations

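Some genes were covered by AGO2 over most of their exons. Among genes with at least 1500 bp of exon, 23 had at least 80% of their exon bases under an AGO2 peak, and 2 of these had more than 1000 bp of intron. The number of genes with that much exon is not given here, so the 23 cannot be read as a share. At w, 100% of 2352 exon bases and 25.5% of 3516 intron bases were covered. At ND-39, which encodes a subunit of mitochondrial complex I, 86.0% of 1616 exon bases and 7.53% of 3387 intron bases were covered, although no AGO2 peak lay over its TSS and Pol II domains covered 23.3% of the gene. Atg14, Alg10, CG34220 and GckIII were also covered over 81.4%, 82.7%, 83.0% and 86.1% of their exon bases, with neither mark at a TSS. The genes slmo and CG34179 share the same stretch of chromosome 2L, so they are not independent. These genes were chosen by coverage after the values were seen, and no test was made of them.

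Non-coding genes were also counted, where over all genes 37.1% had Pol II and 8.87% AGO2 at a TSS. Pol II was at the TSS of 19 of 32 snRNA genes (59.4%, 42.3 to 74.5) and AGO2 at 4. AGO2 was at 13 of 290 tRNA genes (4.48%, 2.64 to 7.52) and Pol II at 6 (2.07%, 0.952 to 4.44), and these intervals overlap. No rRNA gene of 99 had either mark, which allows a share of up to 3.74%, and reads from such repeats would not pass a filter on multimapping reads.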
